A study of Mus musculus with 18 samples.

Results

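Brain RNA was examined for 48 protein-coding genes that lie within a stretch of mouse chromosome 9 close to Hspa8, a constitutive heat shock cognate chaperone gene. The members are the listed genes of the deposited count table between about 40 and 50 Mb (GRCm38), a stretch chosen by its dense run of genes that differed in mice homozygous for human APOE2. All 48 had an entry in the table of 52433 gene symbols, and they spanned chr9:40685962-49798925 from Clmp to Ncam1. A filter on low counts left 43 of them in the tests, together with 58 other genes of the same stretch, out of 19352 tested genes.

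The samples were hemibrains of 18 mice, 1 library each, from 3 targeted-replacement lines in which human APOE takes the place of the mouse gene. The genotypes were APOE2/APOE2, APOE3/APOE3 and APOE4/APOE4, each with 6 mice, 3 females and 3 males, all aged 12 months and labelled with the strain C57bl/6. No mouse with its own Apoe was among them, so every comparison is between human alleles. The labels do not say whether the genotypes were littermates, so genotype and breeding line cannot be told apart. Total counts ran from 43818967 to 59394503 per library, and the members together took 0.364% to 0.392% of the counts. In bulk tissue, fewer cells of a type and less RNA per cell cannot be told apart. The summed level of 5 neuron markers, 6058 to 6667 CPM (counts scaled to library size) in APOE2, 6009 to 6494 in APOE3 and 5623 to 6397 in APOE4, overlapped between the genotypes, and no defining marker of the 8 cell types checked was at 0. Of 4 astrocyte markers 1 was called higher in both APOE2 comparisons, and of 4 microglia markers 1 was called lower against APOE4. Of 4 choroid plexus markers 1 was called higher against APOE3, with summed levels of 415 to 1133 CPM in APOE2, 546 to 760 in APOE3 and 441 to 773 in APOE4. Their part in the members' values was not tested.

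Neighbouring genes of a mammalian chromosome are inherited together, and they may share promoters or enhancers without having related functions. The genes of this stretch belong to no single pathway. They include adhesion proteins of neurons and glia, ubiquitin ligases and proteases, regulators of the sodium pump, tethers of the secretory pathway and proteins that act on RNA. Apoe itself lies on another chromosome.

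The APOE2 mice chose the stretch, so the values of APOE2 against either other genotype are given here as a description, without a test. A gene is named as called where the adjusted p of the edgeR quasi-likelihood test over all tested genes was under 0.05. Among the 43 tested members, 10 were called in APOE2 against APOE3, where 3.76% of all tested genes were called. They were 5 higher and 5 lower members, beside 1.74% and 2.03% of all tested genes. The members' share was 23.3%, and that of the tested genes between 40 and 50 Mb was 31.7%. In the other 10 Mb windows of chromosome 9 the share called against APOE3 ran from 0% to 21.6%. It was 15% at 50 to 60 Mb, 20.7% at 70 to 80 Mb and 21.6% at 80 to 90 Mb. A share above that of all tested genes was therefore not particular to this stretch. Against APOE4, 13 members were called, where the share of all tested genes was 6.29%. These were 6 higher and 7 lower members, beside 2.94% and 3.36%. The authors' deposited table called 13 members against APOE3, 15 against APOE4 and 0 in APOE4 against APOE3, where it called 4.19%, 7.21% and 1.25% of the genes it gave an adjusted p. The APOE2 mice are the same in both comparisons, so these are not separate observations.

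Promoter sequences from RefSeq (GRCm38.p6) are shown for Cbl, Nlrx1, Fxyd6, Ift46 and Slc37a4, the called members with an entry, and for Treh, whose reads also differed, since these are the starts of the transcripts whose levels are described next. Each runs 5′ to 3′ on the strand of its gene, from 250 bases before to 50 bases after the RefSeq start. Capitals mark matches on either strand to the TATA box, searched as TATAAA, the box of the letters CCAAT, the GC box, searched as GGGCGG, and the E-box, searched as CACGTG. Cbl and Nlrx1 are the lower members of the set and lie on the minus strand. The others are on the plus strand and were higher.
Cbl, chr9:44233997-44234296, minus strand: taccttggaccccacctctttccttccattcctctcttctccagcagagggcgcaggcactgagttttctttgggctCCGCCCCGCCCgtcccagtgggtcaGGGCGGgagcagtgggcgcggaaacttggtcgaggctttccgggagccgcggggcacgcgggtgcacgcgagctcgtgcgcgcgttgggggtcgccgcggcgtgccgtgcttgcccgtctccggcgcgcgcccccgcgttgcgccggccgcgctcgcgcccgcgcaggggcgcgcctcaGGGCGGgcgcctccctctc
Nlrx1, chr9:44268550-44268849, minus strand: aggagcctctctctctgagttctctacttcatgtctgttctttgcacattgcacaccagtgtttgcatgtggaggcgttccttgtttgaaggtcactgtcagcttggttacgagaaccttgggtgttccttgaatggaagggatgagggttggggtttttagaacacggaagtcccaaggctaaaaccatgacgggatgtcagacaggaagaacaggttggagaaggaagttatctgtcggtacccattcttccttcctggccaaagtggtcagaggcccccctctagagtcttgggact
Fxyd6, chr9:45369935-45370234, plus strand: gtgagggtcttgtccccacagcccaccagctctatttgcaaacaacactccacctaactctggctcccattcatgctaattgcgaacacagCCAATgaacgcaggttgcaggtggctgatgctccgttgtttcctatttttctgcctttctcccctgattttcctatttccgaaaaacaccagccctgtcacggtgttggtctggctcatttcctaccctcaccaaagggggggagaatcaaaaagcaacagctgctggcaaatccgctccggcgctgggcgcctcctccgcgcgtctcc
Ift46, chr9:44772759-44773058, plus strand: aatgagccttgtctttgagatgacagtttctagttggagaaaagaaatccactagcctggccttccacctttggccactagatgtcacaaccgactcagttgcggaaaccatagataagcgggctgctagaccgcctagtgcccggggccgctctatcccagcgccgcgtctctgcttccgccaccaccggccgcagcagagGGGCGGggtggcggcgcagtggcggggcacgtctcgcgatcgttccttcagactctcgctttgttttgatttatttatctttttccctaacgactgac
Slc37a4, chr9:44396696-44396995, plus strand: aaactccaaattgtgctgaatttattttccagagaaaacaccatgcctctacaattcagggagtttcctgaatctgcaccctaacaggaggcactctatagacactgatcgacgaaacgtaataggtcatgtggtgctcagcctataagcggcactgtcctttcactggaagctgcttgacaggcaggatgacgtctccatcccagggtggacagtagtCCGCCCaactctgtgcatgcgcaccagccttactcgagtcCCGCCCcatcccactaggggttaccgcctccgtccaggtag
Treh, chr9:44672983-44673282, plus strand: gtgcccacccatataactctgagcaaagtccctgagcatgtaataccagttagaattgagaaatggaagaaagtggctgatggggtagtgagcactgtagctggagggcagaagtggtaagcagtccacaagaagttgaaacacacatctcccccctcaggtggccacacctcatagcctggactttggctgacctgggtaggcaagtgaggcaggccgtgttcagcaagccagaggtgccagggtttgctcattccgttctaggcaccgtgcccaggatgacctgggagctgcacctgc

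The Cbl window held 4 GC boxes, a pair of which share a base, and 43 CpG dinucleotides. Slc37a4 had 2 GC boxes with 11 CpG, Ift46 had 1 GC box with 22 CpG, and Fxyd6 had 1 CCAAT box with 12 CpG. No match to the 4 motifs lay in the windows of Nlrx1 and Treh, which had 5 and 3 CpG. The RefSeq start of Ift46 lies inside the gene as GENCODE draws it, downstream of the annotated start at 44767908. Over the 30 members with an entry, 16 (53.3%) had a GC box against 35.9% of 27025 mouse promoters, 9 (30%) had a CCAAT box against 37.9%, 3 (10%) had an E-box against 7.24%, and 0 had a TATA box against 14.2%. The median number of CpG was 23 in the members and 7 in all promoters, so the members' windows were the richer in CpG. The mouse promoters were not matched to the members for gene type or expression, so these differences cannot be tied to the stretch.

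Among ion transport genes and receptors, Fxyd2 and Fxyd6 were higher in APOE2. Both encode small single-span proteins that bind the sodium pump and tune its transport, and they lie side by side on the plus strand, Fxyd6 at chr9:45370185-45396159 and Fxyd2 at chr9:45399669-45410278. Fxyd2, the gamma subunit best known from kidney, stood at 6.62, 7.68 and 10.0 CPM (lowest, median and highest of 6 mice) in APOE2, at 2.59, 2.75 and 2.90 CPM in APOE3, and at 1.79, 2.20 and 2.55 CPM in APOE4. Each APOE2 mouse lay above all 12 others, and none of the 3 genotypes overlapped. Its log2 fold change was 1.53 (SE 0.10) against APOE3 and 1.86 (SE 0.10) against APOE4, the largest positive value among the tested members in both comparisons.

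Fxyd6, a regulator of the pump that is abundant in brain, ran over 120, 135 and 146 CPM in APOE2, 107, 111 and 116 CPM in APOE3, and 109, 118 and 126 CPM in APOE4. The APOE2 mice were all above the APOE3 mice but overlapped those of APOE4. The difference was 0.28 (SE 0.05) on the log2 scale against APOE3 and 0.19 (SE 0.05) against APOE4. The call against APOE4 was lost when APOE4 replicate 6 was left out. Tmem25, a membrane protein of the immunoglobulin superfamily, was not called, at -0.14 (SE 0.06) against APOE3. Htr3b, a subunit of the serotonin-gated ion channel, had 11, 12 and 13 reads in all mice of APOE2, APOE3 and APOE4 together and was too low to test.

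**Figure D1:**
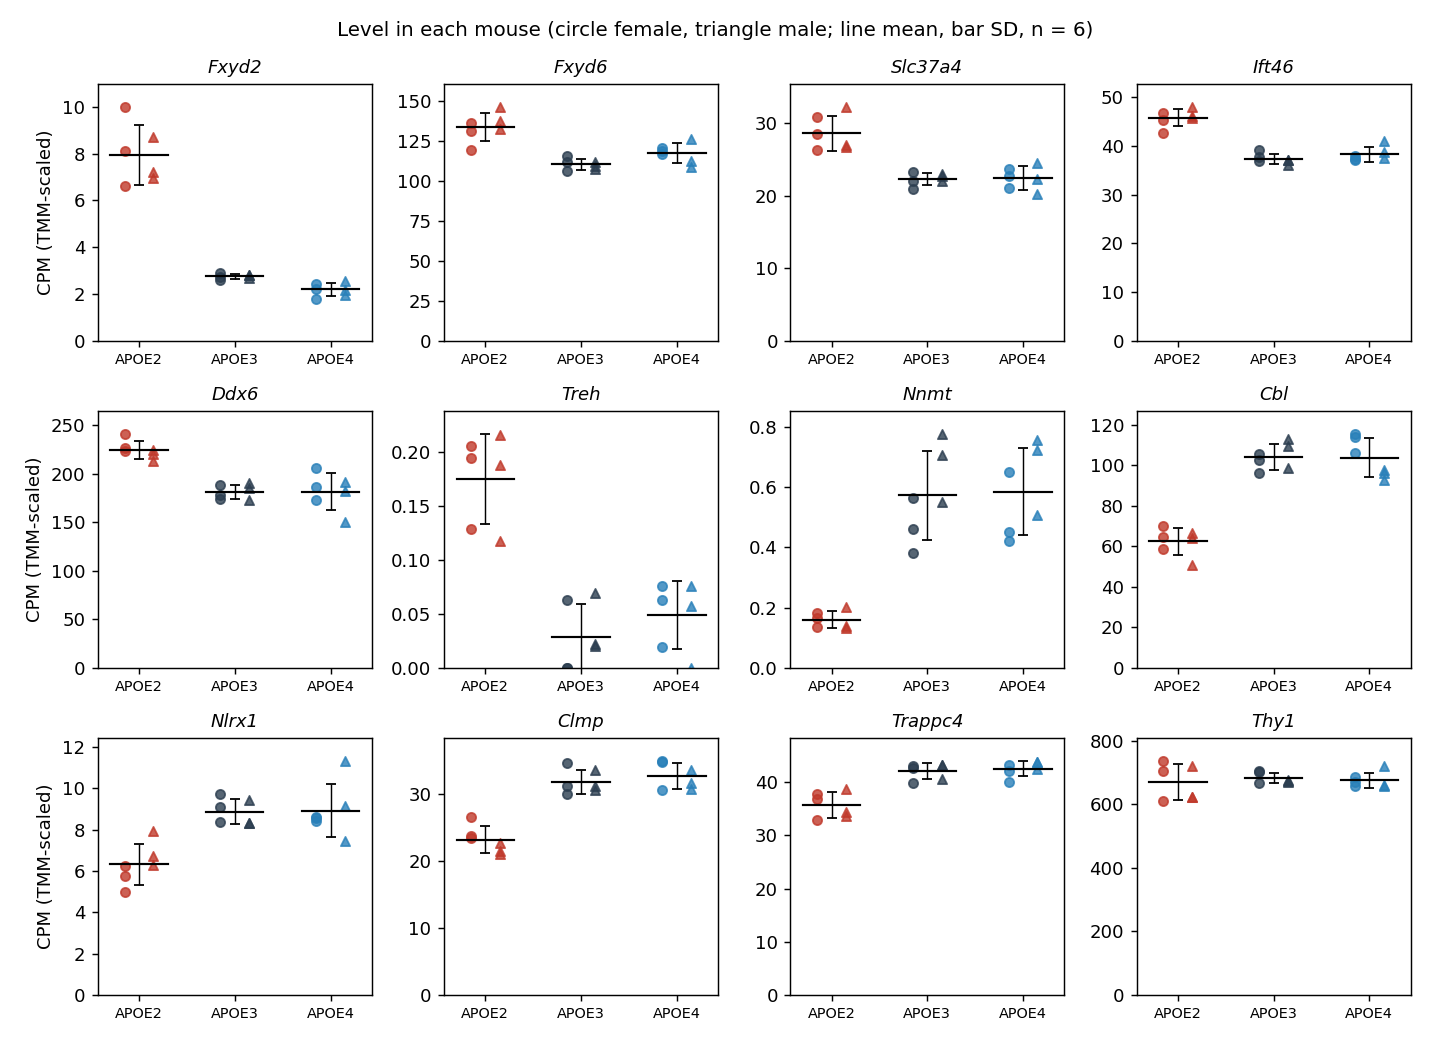
Level of the 10 members called in APOE2 against APOE3, of Treh, and of Thy1 as a member that was not called, in CPM after TMM scaling (vertical axis, from 0) by genotype. Each point is 1 mouse (circle female, triangle male), the line is the mean and the bar the SD of 6 mice; the APOE2 points of Fxyd2 and Nnmt are apart from all others, and those of Thy1 are not.

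Metabolic genes held 1 higher and 1 lower member among 4 tested. Nnmt, which methylates nicotinamide and so draws on the methyl donor and NAD precursor pools, lies at chr9:48591877-48605153 on the minus strand. Its level was 0.132, 0.151 and 0.202 CPM in APOE2, 0.382, 0.557 and 0.776 CPM in APOE3, and 0.421, 0.578 and 0.758 CPM in APOE4. All APOE2 mice were below all others. The log2 fold change was -1.82 (SE 0.21) against APOE3 and -1.85 (SE 0.21) against APOE4, the lowest of the tested members. It rests on few reads, 51 over the 6 APOE2 mice against 163 and 180 in APOE3 and APOE4.

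Slc37a4, which carries glucose 6-phosphate into the endoplasmic reticulum (chr9:44396852-44402968, plus strand), was at 26.3, 27.7 and 32.2 CPM in APOE2, 20.9, 22.4 and 23.3 CPM in APOE3, and 20.2, 22.5 and 24.6 CPM in APOE4. The APOE2 mice again lay above all others, by 0.36 (SE 0.06) in log2 against APOE3 and 0.35 (SE 0.06) against APOE4. Dpagt1, which starts the lipid-linked sugar chain for N-glycosylation, and Pafah1b2, a catalytic subunit of a platelet-activating factor acetylhydrolase, were not called, at 0.09 and 0.04.

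Treh encodes trehalase, the enzyme that splits the sugar trehalose, and lies at chr9:44673233-44686305 on the plus strand. It had too few reads for the tests. APOE2 mice had 7 to 11 reads each and 55 in all, APOE3 mice had 0 to 3 and 8 in all, and APOE4 mice had 0 to 4 and 15 in all. Every APOE2 mouse had more reads than any other mouse. Scaled for library size, the ratio of the summed reads was 6.14 against APOE3 (exact 95% interval 2.91 to 14.9) and 3.53 against APOE4 (1.97 to 6.73), where the intervals cover counting error only. Treh belongs to a stretch chosen by the APOE2 mice, so these ratios are a description and not a test. The authors' deposited table gave Treh a log2 fold change of 2.62 against APOE3 and called it in both APOE2 comparisons. It rests on the same mice and so is not separate support. Its last exon shares 2 bases with Phldb1 on the other strand.

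The ubiquitin group had 7 members, all tested, and 1 was called against APOE3. Cbl, a ligase that marks activated receptor tyrosine kinases for removal (chr9:44142976-44234049, minus strand), stood at 50.8, 64.2 and 69.9 CPM in APOE2, 96.2, 104 and 113 CPM in APOE3, and 92.8, 102 and 115 CPM in APOE4. No APOE2 mouse reached the lowest of the others. The log2 difference was -0.74 (SE 0.07) against APOE3 and -0.73 (SE 0.07) against APOE4, a level of 0.598 times that of APOE3. The other 6 are the deubiquitinases Usp2 and Usp28, the chain-elongating factor Ube4a, the RING protein Rnf214, the tripartite motif protein Trim29 and Ubash3b, a phosphatase with a ubiquitin-associated domain. They ranged from -0.18 (Usp28) to 0.05 (Trim29) against APOE3. The value of Trim29 is imprecise, with an SE of 0.27 at a mean of 0.24 CPM. Ube4a was called lower against APOE4, at -0.16 (SE 0.05), with levels of 78.001, 84.8 and 94.8 CPM in APOE2 and 88.3, 95.1 and 101 CPM in APOE4, which overlap. That call was lost in 9 of 27 alternatives. Against APOE3, Ube4a was at -0.15 (SE 0.05) and was not called by edgeR, but the authors' deposited table and DESeq2 called it lower. Both also called Ubash3b lower against APOE4, where it was at -0.18 (SE 0.06) and not called by edgeR.

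Of 7 surface and adhesion genes, 6 were tested and 1 was called. Clmp, an adhesion molecule of epithelial and glial junctions (chr9:40685962-40785319, plus strand), is the member nearest to Hspa8. It was at 20.98, 23.1 and 26.6 CPM in APOE2, 29.98, 31.2 and 34.6 CPM in APOE3, and 30.7, 32.6 and 34.9 CPM in APOE4. All APOE2 mice were below all others, at a log2 difference of -0.46 (SE 0.05) against APOE3 and -0.50 (SE 0.05) against APOE4. A transcript on the other strand, Gm16096, shares 10.08% of the exon length of Clmp. Several of the best-known neural surface genes in the stretch were not called. Thy1, the abundant glycoprotein of projection neurons, was at -0.03 against APOE3, the neural cell adhesion molecule Ncam1 at 0.02, the synaptic adhesion molecule Cadm1 at 0.09, the homophilic receptor Dscaml1 at -0.00, and the endothelial and mural cell adhesion molecule Mcam at 0.10. Crtam, a receptor of activated lymphocytes that binds Cadm1, had 22, 18 and 13 reads over APOE2, APOE3 and APOE4 and was not tested.

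Membrane traffic held 4 tested members. Trappc4, a subunit of the TRAPP complexes that tether vesicles at the Golgi (chr9:44403698-44407600, minus strand), was at 32.9, 35.7 and 38.7 CPM in APOE2, 39.8, 42.9 and 43.2 CPM in APOE3, and 39.98, 42.8 and 43.7 CPM in APOE4. The APOE2 mice lay below all others, by a narrow gap, at -0.24 (SE 0.05) and -0.25 (SE 0.05) in log2 against APOE3 and APOE4. Its exons share 462 bases, 18.9% of their length, with Rps25 on the opposite strand. The strand setting of the counting is not given in the sources used here, so how reads of the shared bases were counted is not known. Arcn1, the delta subunit of the coat of retrograde Golgi vesicles, the proprotein convertase Pcsk7 and the lysosomal membrane protein Sidt2 were not called, from -0.13 to 0.03.

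In the RNA and translation group, 1 of 5 tested members was called. Ddx6, a helicase of processing bodies that holds messenger RNA in a repressed state (chr9:44604892-44640731, plus strand), was at 213, 224 and 241 CPM in APOE2, 173, 182 and 190 CPM in APOE3, and 151, 184 and 206 CPM in APOE4. Each APOE2 mouse was above all others, at 0.31 (SE 0.05) in log2 against either genotype. A processed pseudogene of Ddx6, Gm13410 on chromosome 2 (chr2:24178834-24180317, plus strand), matches it at 94.6% identity and drew 1282 reads in APOE2 (151 to 271 per mouse) against 9 in APOE3 (0 to 4) and 11 in APOE4 (0 to 5). Scaled for library size the ratio of the summed reads was 127 against APOE3, with an exact 95% counting interval of 66.8 to 279, and 112 against APOE4, with an interval of 62.5 to 225. Ddx6 itself had 71523, 51498 and 55470 reads in the 3 genotypes. Adding the pseudogene's reads to those of Ddx6 gave 0.33 (SE 0.05) against APOE3.

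The small-subunit ribosomal protein gene Rps25 was at 0.03 (SE 0.15), the widest error in this group, and several processed pseudogenes are near-identical to it. How reads that match both Rps25 and a copy were counted is not given in the sources used here. Those with an entry held 0 to 12 reads per genotype, and adding those of Rps25-ps1 gave 0.03 (SE 0.15). At 3.12 RPKM (CPM per kilobase of exon) Rps25 ranked 22 among 33 small-subunit genes, whose median was 6.54. Ccdc84, which takes part in splicing, was at -0.28 (SE 0.09) against APOE3, was not called here, and was called in the authors' deposited table. Bud13, of the spliceosome-associated retention and splicing complex, and Rbm7, of a complex that hands RNA to the nuclear exosome, were not called, at -0.04 and 0.13.

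Cytoskeleton, cilium and division genes numbered 6, all tested, and 1 was called against APOE3. Ift46, a core subunit of the train that carries cargo into cilia (chr9:44767908-44793447, plus strand), was at 42.7, 46.03 and 48.04 CPM in APOE2, 36.1, 37.0 and 39.2 CPM in APOE3, and 37.2, 37.7 and 41.1 CPM in APOE4. All APOE2 mice were above all others, at 0.29 (SE 0.04) and 0.26 (SE 0.04) in log2. Its annotated start lies 63 bases from that of Arcn1, which is read the other way and was at 0.03 (SE 0.05). Phldb1, which links microtubules to the cell cortex, was at 110, 128 and 147 CPM in APOE2, 132, 143 and 156 CPM in APOE3, and 135, 150 and 180 CPM in APOE4. These ranges overlap, and it was called against APOE4, at -0.24 (SE 0.06), but not against APOE3, at -0.16. The call was lost in 6 of 27 alternatives. The centriolar appendage protein Cep164, the kinetochore and tethering protein Zw10, the guanine nucleotide exchange factor Arhgef12 and the tubulin cofactor-like Tbcel were not called, from -0.23 to -0.02.

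**Figure D2:**
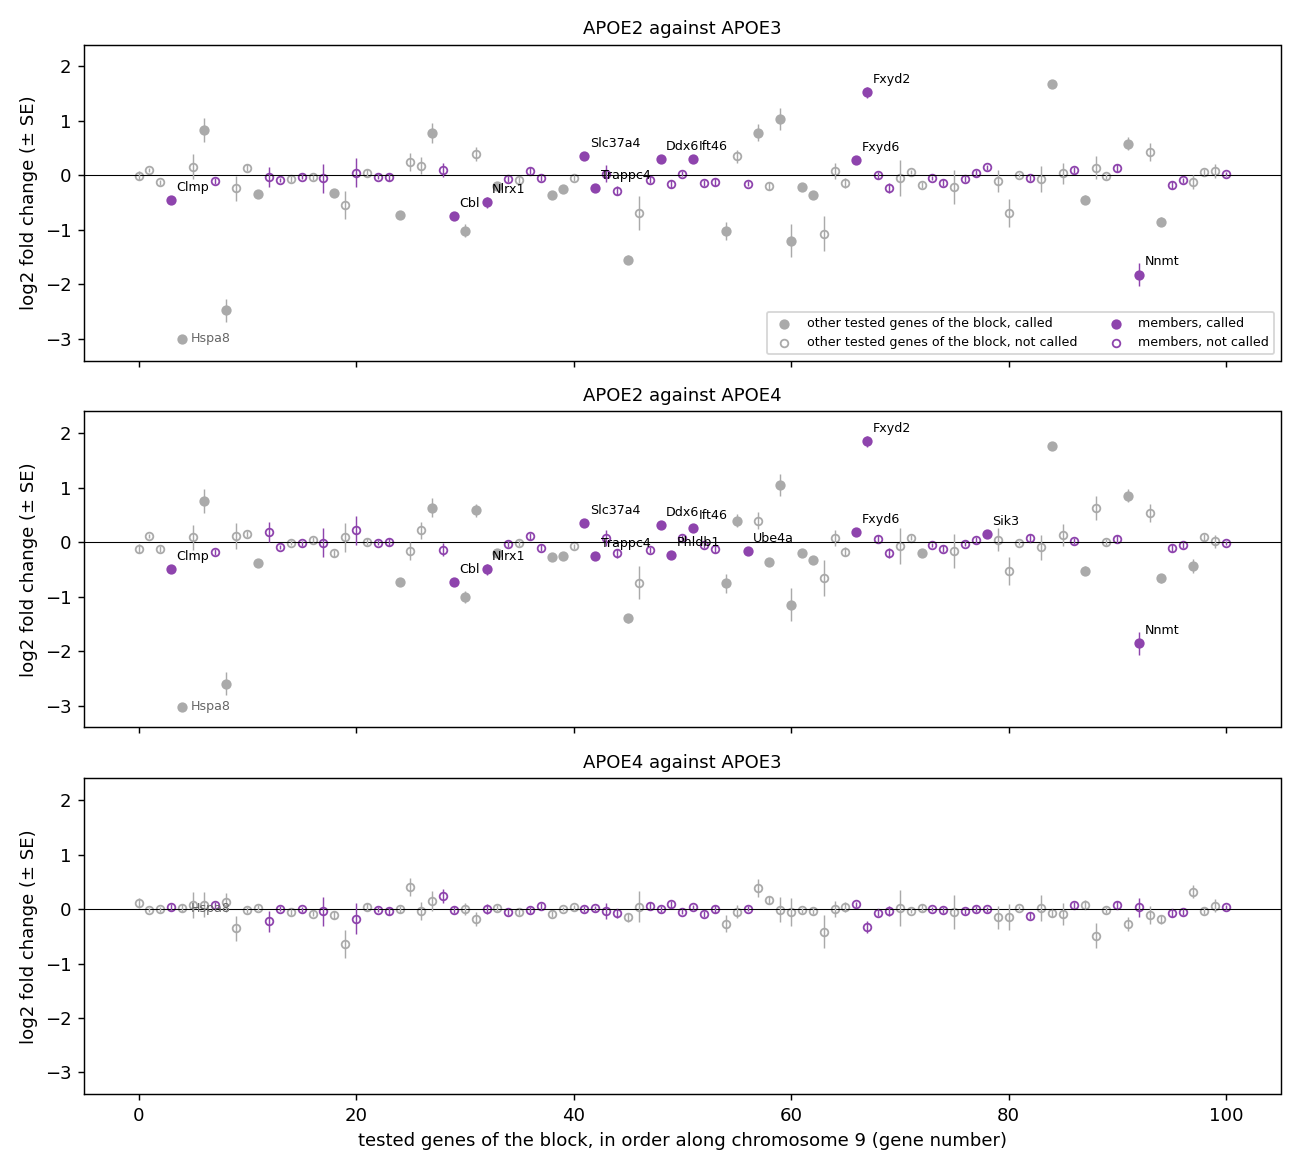
Log2 fold change with its standard error (vertical axis) of the 101 tested genes between 40 and 50 Mb, in order along chromosome 9 (horizontal axis), for APOE2 against APOE3, APOE2 against APOE4 and APOE4 against APOE3. Purple points are the 43 tested members and grey points the 58 other genes, filled where called; members called higher and lower stand among members near 0 in both upper panels, and no point is filled in the lowest panel.

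Transcription and chromatin genes had 5 tested members and none called in either APOE2 comparison. Against APOE3 they ranged from -0.13 for the histone methyltransferase Kmt2a to -0.05 for the histone variant gene H2afx. Hinfp, which drives histone H4 genes, was at -0.07 and the beta-catenin coactivator Bcl9l at -0.08. Pou2f3, a factor of tuft cells, was at -0.05, with an SE of 0.27 at a mean of 0.28 CPM.

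The last group joins secreted, signalling and other proteins, with 3 of 5 members tested. Nlrx1, a mitochondrial protein that dampens innate immune signalling (chr9:44252717-44268599, minus strand), was at 4.97, 6.28 and 7.95 CPM in APOE2, 8.32, 8.74 and 9.71 CPM in APOE3, and 7.47, 8.57 and 11.3 CPM in APOE4. The APOE2 mice lay below all APOE3 mice and overlapped the lowest APOE4 mouse. The log2 difference was -0.50 (SE 0.09) against both genotypes. A transcript on the other strand, Gm10686, shares 11.88% of the exon length of Nlrx1. Sik3, a salt-inducible kinase, was at 194, 198 and 211 CPM in APOE2, 173, 178 and 196 CPM in APOE3, and 156, 183 and 193 CPM in APOE4, so that the APOE2 mice were above all APOE4 mice and overlapped those of APOE3. It was called higher against APOE4, at 0.15 (SE 0.05), and not against APOE3, at 0.15, and the call was lost in 20 of 27 alternatives. Tecta, a matrix protein of the inner ear, was at -0.03, with an SE of 0.18 at a mean of 0.41 CPM. Ttc36 had 34, 43 and 48 reads over APOE2, APOE3 and APOE4 and was not tested. C1qtnf5, a secreted protein of the complement-related family, was listed at 0 reads in every mouse, and all 1589 bases of its exons lie within those of Mfrp on the same strand, which had 1774, 1358 and 1909 reads.

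Taking each mouse on its own, 8 of the 43 tested members had all 6 APOE2 values outside the range of the other 12 mice, where 1.92% of all tested genes did. Slc37a4, Ddx6, Ift46 and Fxyd2 lay above, as did 0.811% of all tested genes, and Clmp, Cbl, Trappc4 and Nnmt lay below, as did 1.11%. The authors' normalized values gave the same 8 members, but they are the same counts with another scaling per library and so are not separate support. The titles of 3 APOE2 mice end in a letter c and those of the 3 others in none, while the APOE3 and APOE4 titles end in d, e, f or g. The labels do not explain the letters, and no letter is shared between APOE2 and another genotype, so what the letters mark and APOE2 cannot be told apart. Within APOE2, 0 of the 43 tested members had ranges apart between the letter c and none. The share of all tested genes with such ranges was not computed, so no conclusion is drawn from this count. Lower and higher members lay among one another along the chromosome. The 5 higher members were all on the plus strand and 4 of the 5 lower members on the minus strand, whereas of the other called genes of the stretch 4 of 6 higher and 8 of 16 lower were on the plus strand. Per length of exon, the called members were not set apart by level: the median was 8.56 RPKM in the higher, 6.37 in the lower and 6.90 in those not called.

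**Figure D3:**
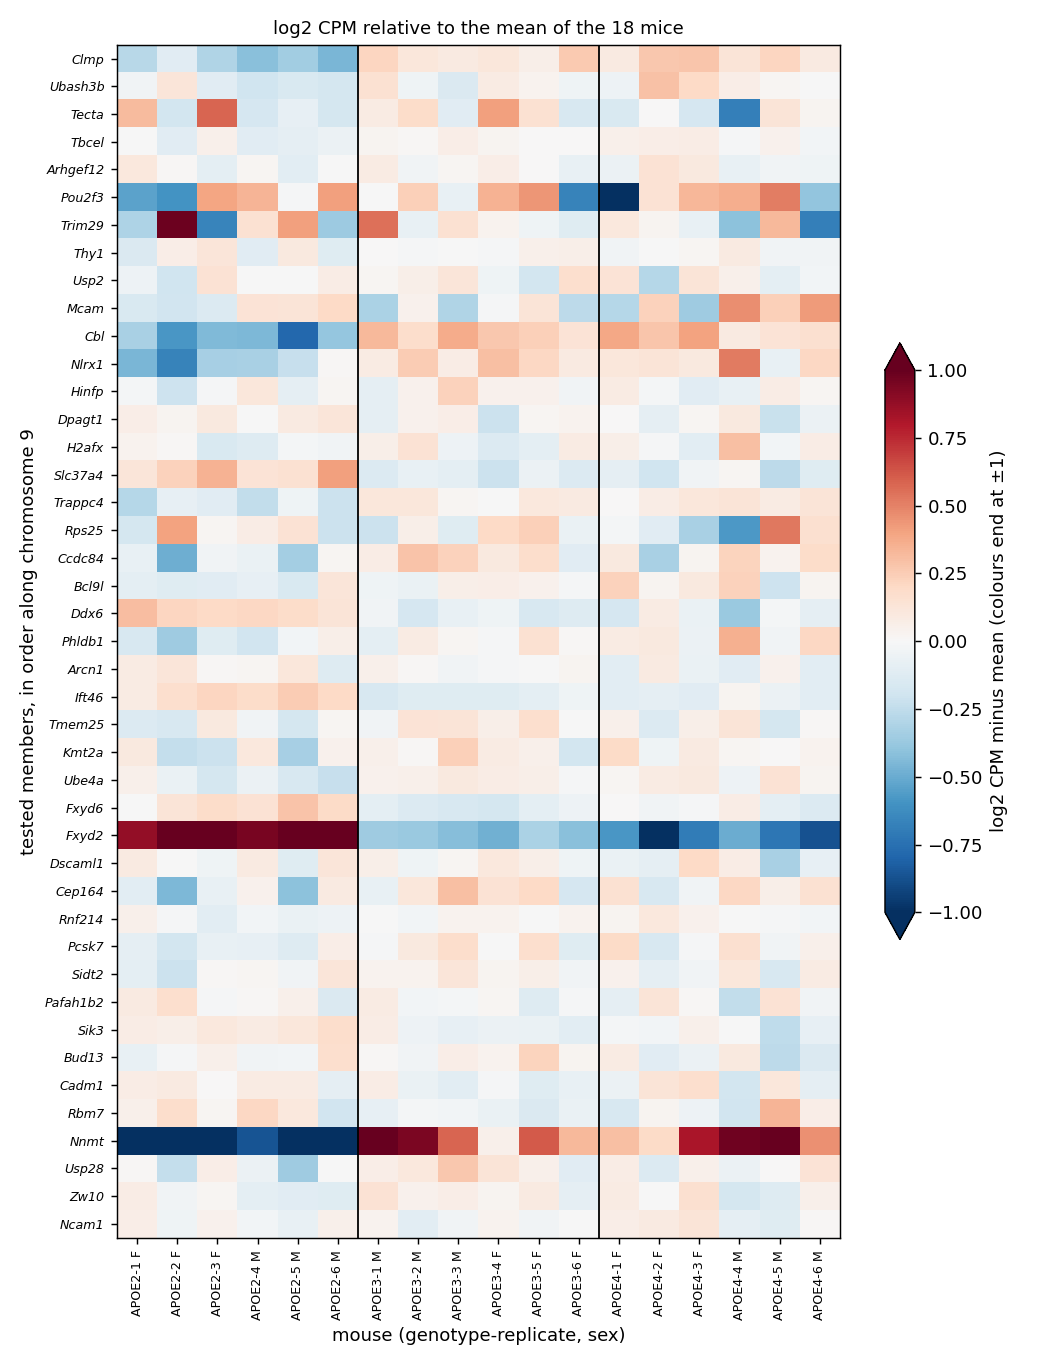
Log2 CPM of the 43 tested members (rows, in order along chromosome 9) in each of the 18 mice (columns, by genotype, replicate and sex), relative to the mean of all mice; colours end at -1 and 1. Fxyd2 is red and Nnmt blue in the 6 APOE2 columns, Cbl and Clmp are blue there, and most rows have no step between genotypes.

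The median log2 fold change of the members against APOE3 was -0.05, beside -0.00 over all tested genes, and the median of its size was 0.0986, beside 0.0849. All tested genes were not matched to the members for expression. Of the 43 members 15 had a positive sign and 28 a negative one. The other tested genes of the stretch had 22 of 58 called against APOE3 (37.9%), 6 higher and 16 lower, so the listed members are not those with the densest calls. Hspa8 (chr9:40800984-40810087) was at 25.4, 31.1 and 35.6 CPM in APOE2, 223, 239 and 278 CPM in APOE3, and 230, 237 and 297 CPM in APOE4. At the low limit of the stretch, Zfp202, Scn3b and Gramd1b just inside and Vwa5a, Olfr920 and AW551984 just outside were not called. At the high limit, Drd2, Ttc12 and Ncam1 just inside were not called, while Plet1 at -1.36 and Pts at -0.64 just outside were called and Rpl10-ps3 was not. The limit of 50 Mb is therefore not where the called genes end.

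The comparison of APOE4 with APOE3 took no part in choosing the members and can be tested. Of the 43 tested members 0 were called by edgeR, where 0.744% of all tested genes were called. DESeq2 also called 0, where it called 1.49% of the genes it gave an adjusted p. Limma voom called 0 as well, and its share over all genes is not given here. With such low shares over all genes, 0 of 43 members is not a result about the members. At an unadjusted p under 0.05 there was 1 member, where 8.72% of all tested genes passed. The median size of the log2 fold change was 0.0390, beside 0.0633 over all tested genes. All tested genes were not matched to the members for expression, so this difference cannot be tied to the stretch. Fxyd2 was the member with the smallest p. Its APOE4 mice were all below its APOE3 mice, at -0.33 (SE 0.11) in log2, with an edgeR adjusted p of 0.258. It was 1 of 43 members whose genotypes did not overlap in this comparison, where 1.43% of all tested genes did not. The next were Mcam at 0.24 (SE 0.12, edgeR adjusted p = 0.607) and Fxyd6 at 0.09 (SE 0.05, edgeR adjusted p = 0.641). The 9 other members called in APOE2 against APOE3 ranged from -0.01 to 0.09 in APOE4 against APOE3.

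Sex was tested in the same way over all 18 mice. Between females and males 0 members were called by edgeR, where 0.129% of all tested genes were, and 4 had an unadjusted p under 0.05, a share near the 8.37% of all tested genes that did. These were Ncam1 at 0.08 (female against male, edgeR adjusted p = 0.545), Ubash3b at 0.11, Nnmt at -0.37 and Mcam at -0.23. DESeq2 called 0 members as well, where it called 0.305% of all genes. The 10 members called in APOE2 against APOE3 had the same sign in females and males. They were picked by the fit over both sexes together, which favours the same sign, so this is a description only.

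The test of whether a genotype difference differs between the sexes called 0 members in each of the 3 genotype pairs, by edgeR and by DESeq2. Over all tested genes edgeR called 0% in both APOE2 pairs and 0.0103% in APOE4 against APOE3. DESeq2 called 0.0362% in APOE2 against APOE3, 0.00517% in APOE2 against APOE4 and 0.203% in APOE4 against APOE3. In the same order, the members with an unadjusted edgeR p under 0.05 numbered 1, 0 and 3, beside 5.78%, 2.7% and 6.93% of all tested genes. Mcam came nearest, with a female minus male difference of -0.63 (SE 0.19) in APOE4 against APOE3 and an edgeR adjusted p of 0.411. In females its level was 19.4, 20.4 and 29.2 CPM in APOE4 and 20.7, 24.7 and 27.2 CPM in APOE3, which overlap. In males it was 29.3, 33.5 and 34.3 CPM in APOE4 and 19.9, 20.2 and 25.7 CPM in APOE3, which do not. Mcam was called in this test when no filter on low counts was used, with an edgeR adjusted p of 1.1e-04 (0.038 for APOE2 against APOE3), and when APOE4 replicate 2, a female, was left out, with an adjusted p of 0.0357.

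**Figure D4:**
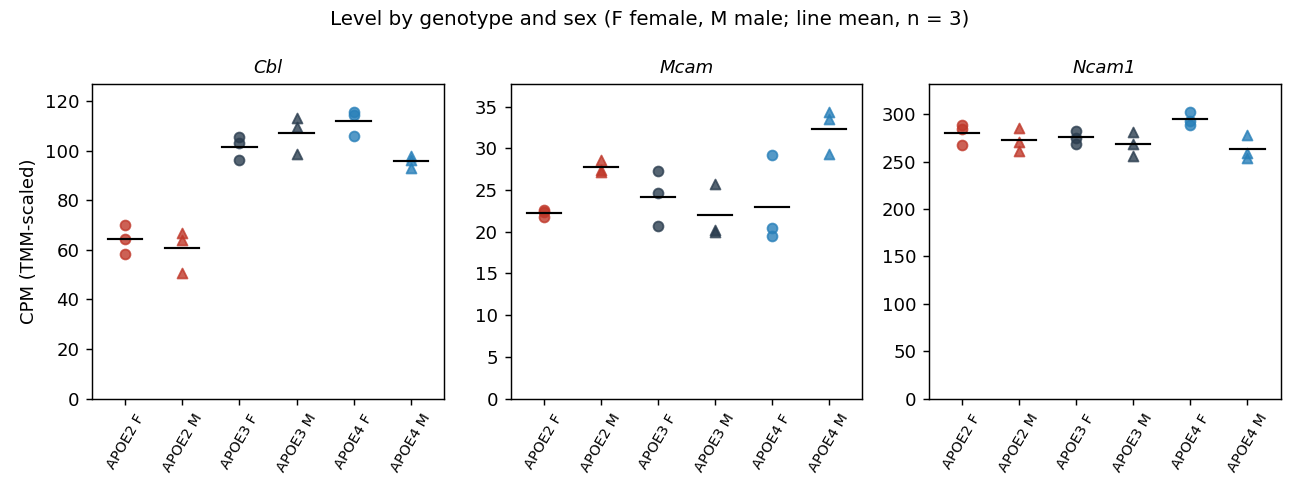
Level of Cbl, Mcam and Ncam1 in CPM after TMM scaling (vertical axis, from 0) by genotype and sex (horizontal axis, F female and M male). Each point is 1 mouse and each line the mean of 3; male APOE4 mice stand above male APOE3 mice for Mcam, and both sexes of APOE2 stand below the other genotypes for Cbl.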

How the data were processed

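PolyA RNA of 18 hemibrains was sequenced from a stranded library kit as single reads of 50 bases over 3 shared lanes, per the labels' protocols. The count table is the authors' raw read counts by symbol. The submitters' processing notes name Trimmomatic, STAR 2.7.0, featureCounts and DESeq2, with the builds GRCm38 and mm10. Which annotation, strand setting and DESeq2 model were used is not given in the sources used here. Per the file headers, the authors also deposited a normalized signal (counts divided by a size factor per library) and, for each genotype pair, a mean signal, a log2 fold change with its standard error, a test score, a p-value and an adjusted p-value. Their APOE3 against APOE4 values are given with the sign turned.

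The 26 symbols that had been turned into dates took 0.304% to 0.322% of the counts and entered neither library sizes nor tests. Positions came from GENCODE mouse release 21 (GRCm38), in which 47982 symbols (91.5%) matched a single gene. Genotype, sex and title came from the labels; replicate numbers are names given in accession order. Counts were fitted with edgeR 4.0.16 (R 4.3.3): TMM scaling, filterByExpr by genotype and sex, robust quasi-likelihood F test, genotype and sex as additive terms over all 18 libraries, and Benjamini-Hochberg adjustment over 19352 genes. A second fit, with a mean for every combination of genotype and sex, gave the sex differences. P-values measure the spread between mice, whose biological coefficient of variation was 0.0849. Chi-square per degree of freedom between replicates was 5.78 to 46.7, so no library looked deposited more than once.

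CPM are counts scaled to library size after TMM, and RPKM divide them by merged exon length. Genes with few reads are compared by summed reads with exact 95% intervals. Copies were sought with blastn 2.17.0 on the same strand, at 90% identity or more over at least 50% of the copy or the gene. The members, their role groups and the motifs were chosen with earlier results of these data known. Members are all accounted for; those described with every group's range are the called ones. Other genes are named for their position beside the limits of the stretch, or as copies or overlapping genes. The alternatives were DESeq2 or upper-quartile factors, no low-count filter, DESeq2 1.42.0, voom of limma 3.58.1, a minimum of 1 CPM in 6 mice, no sex term, the 12 compared libraries alone, the APOE3 and APOE4 mice with titles ending in e or f, summed copies, and leaving out each library; filterByExpr by genotype and the sum of Ddx6 with its copy were added after seeing the data. The fit was tested on simulated data.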

Additional observations from a re-analysis of the deposited data

Results flagged for a closer look

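Within each genotype, a member was checked for a mouse far from its group, by Dixon's ratio of the gap to the whole range. Of 129 groups of 6 mice examined, 4 had such a mouse, and chance alone flags about 1 in 20 groups. In APOE3 replicate 1 Trim29 was at 0.333 CPM, with the next mouse at 0.253, and Sik3 was at 196 CPM, with the next at 179.5. Bud13 was at 10.7 CPM in APOE3 replicate 5, with the next at 9.63. Bcl9l was at 59.8 CPM in APOE2 replicate 6, with the next at 51.9.

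The 43 tested members were also checked, in the 3 genotype pairs, for sexes that lay apart in opposite directions, and 1 was flagged. How often chance alone gives such a flag, and its share over all tested genes, were not computed. Cbl moved in opposite directions in the sexes when APOE4 was set against APOE3. The 3 female APOE4 mice, at 105.92, 114 and 115 CPM, were by a narrow gap above the 3 female APOE3 mice, at 96.2, 103 and 105.61 CPM. The 3 male APOE4 mice, at 92.8, 96.3 and 97.8 CPM, were below the 3 male APOE3 mice, at 98.7, 109 and 113 CPM. The female minus male difference was 0.30 in log2 (SE 0.12), with an edgeR adjusted p of 0.617 over all tested genes, which does not pass. Both sexes of APOE2 lay below all of these, at 58.5 to 69.9 CPM in females and 50.8 to 66.8 CPM in males.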

How the results depend on the processing

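All 10 members called in APOE2 against APOE3 were called in each of 27 alternatives, except that Nnmt was not fitted under the filter of at least 1 CPM. No value changed direction. Against APOE4, Phldb1 was lost in 6, Ube4a in 9, Sik3 in 20 of 27, and Fxyd6 in 1, without APOE4 replicate 6. Phldb1 was lost without APOE2 replicate 1, 2 or 4 or APOE4 replicate 2, 4 or 6; Ube4a without APOE2 or APOE4 replicate 2, 3, 5 or 6; and Sik3 without any library other than APOE3 replicate 1 and APOE4 replicates 3 and 4. Ube4a and Sik3 were also lost with the 12 compared libraries alone, and Sik3 under both other scalings, with no filter and with filterByExpr by genotype. DESeq2 called 12 and 14 members in the APOE2 comparisons, beside 4.89% and 7.99% of all genes. Leaving out each library in turn gave 10 to 13 members called against APOE3, 10 to 15 against APOE4, 0 to 0 in APOE4 against APOE3, and 8 to 10 outside the range of the other genotypes. With fewer mice ranges part more easily for any gene, and the share of all tested genes was not computed for these ranges. Other genes of the stretch numbered 19 to 23, 20 to 25 and 0 to 1 in the 3 comparisons, the 1 without APOE3 replicate 6. For the sex difference of APOE4 against APOE3 it gave 0 to 1 members (Mcam, without APOE4 replicate 2) and 0 to 11 genes in all, also highest without that mouse.

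Over all genes, leaving out a library gave 581 to 1037 calls against APOE3, 943 to 1859 against APOE4 (1859 without APOE4 replicate 5; 1218 with all), 108 to 162 in APOE4 against APOE3, 21 to 37 between the sexes, and 0 to 1 in the sex difference of each APOE2 pair. DESeq2 gave 272 (edgeR 144) in APOE4 against APOE3, 59 (edgeR 25) between the sexes, and 7, 1 and 37 in the sex differences of APOE2 against APOE3, APOE2 against APOE4 and APOE4 against APOE3. Without a filter there were 53 calls between the sexes and 177, 46 and 159 in those sex differences, with 1 member, Mcam, in the first and in the last. The cause was not tested. No paired analysis was possible because the labels give no replicate number shared between genotypes. The title letters e and f, shared by APOE3 and APOE4, fall on males and females and so cannot be told apart from sex, which is in the fit; in these mice alone 0 members and 130 genes were called. Depth limits Treh, Nnmt and the other members under 1 CPM, and unstated strand counting limits members that overlap a gene on the other strand.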
